A study of Mus musculus with 9 samples.

Results

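Slc26a5, Ikzf2 and Insm1 are 3 genes tied to the outer hair cell, and their levels were read in cochleae of mice with and without a mutant allele of the hair cell transcription factor Pou4f3. The genes were chosen by name, as the outer hair cell motor and a pair of fate regulators, and were found by Ensembl identifier. They are 3 of the 51912 genes listed in the heterozygous and wild type libraries. Slc26a5 is also among the 1137 genes listed in the homozygous mutant libraries, and Ikzf2 and Insm1 are not listed there.

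Outer hair cells amplify sound by changing length with each cycle of the receptor potential, and the membrane motor that drives this is prestin, the product of Slc26a5. Ikzf2 encodes helios, a zinc-finger transcription factor of the Ikaros family that in mice drives postnatal maturation of outer hair cells and lowers inner hair cell genes in them. Insm1 encodes a zinc-finger repressor that mouse outer hair cells express for a short time after they form, and without which some of them take on inner hair cell features. Pou4f3 is needed in both kinds of hair cell for differentiation and survival. At postnatal day 3 the mouse cochlea does not yet hear, and the prestin level of outer hair cells is still rising.

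The material was RNA from cochleae of mice at postnatal day 3, in 3 groups of 3 libraries. The titles of the samples give the groups as Pou4f3(Δ/Δ), called HOM here, Pou4f3(Δ/+), called HET, and Pou4f3(+/+), called WT; all 3 groups were otherwise given the same label, with no treatment, strain background or extent of the Δ allele stated. The genotype field of the labels goes against the titles in every sample: it gives Pou4f3(Δ/+) for the libraries titled HOM, Pou4f3(+/+) for those titled HET and Pou4f3(Δ/Δ) for those titled WT. The names of the value columns in the files use the same group names as the titles. The column of the library titled HET replicate 3 bears another replicate number. The titles were followed, so each direction holds only if they are right. The study's design text names HET mice and their wild type littermates. Nothing in the labels says that each library came from a separate animal, so p-values measure the spread between these libraries. The Δ allele is in the whole animal as far as the labels say. Cochleae are a mixture of cell types, so fewer cells of a type and less RNA per cell cannot be told apart.

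Values are the authors' FPKM, fragments divided by the length of the gene and the size of the library. Depths recovered from the smallest steps between values were 14320000 to 15750000 fragments in HOM libraries, 15550000 to 17400000 in HET and 14560000 to 17020000 in WT. Pou4f3 had 5.92, 1.36 and 9.39 FPKM in HOM libraries 1 to 3, against 24.21, 21.74 and 25.56 FPKM in HET and 25.02, 24.49 and 26.97 FPKM in WT. The libraries titled HOM had the lowest Pou4f3, and HET and WT overlapped. Since the extent of Δ is not given, these levels do not by themselves check the genotype. The 1137 genes listed in HOM all had HOM libraries that did not overlap the WT libraries, so they were listed for a difference between those groups and a HOM against WT call is no evidence of its own. HET 1 and WT 3 stood apart from the other HET and WT libraries. On the first principal component of the 6 libraries, which held 58.1% of the variance, they scored 32.73 and 27.39, and the others lay between -22.36 and -4.35. Results that rest on these libraries are given with and without them. Xist, which depends on the sex of the animals, was far higher in HET than in WT 1 and WT 3, as given at the end.

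Slc26a5 (ENSMUSG00000029015) lies on the minus strand of chromosome 5 at 21810655 to 21865604 in GRCm38, with 20 exon blocks of 3072 bp in all, and overlaps no other annotated gene. Its promoter is shown because Slc26a5 is the 1 gene of the 3 with HOM values and with a promoter sequence used here. The bases run from 250 before to 20 after the start at chr5:21865585-21865854, minus strand, from RefSeq on GRCm38.p6. Capitals mark the only match to CANNTG, the E-box letters that bHLH factors such as ATOH1 can bind.

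Slc26a5 promoter: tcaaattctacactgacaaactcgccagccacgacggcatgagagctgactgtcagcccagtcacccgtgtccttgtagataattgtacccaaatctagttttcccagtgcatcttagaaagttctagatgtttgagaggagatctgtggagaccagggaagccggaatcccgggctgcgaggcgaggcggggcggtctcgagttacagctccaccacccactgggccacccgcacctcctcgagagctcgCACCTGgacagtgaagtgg

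The match, CACCTG, begins at position 2, with the start base counted as 1. In the 300-base window used for all genes, CANNTG was searched on both strands and occurred in 72.3% of 32851 promoters. The narrower E-box CAGCTG, which CANNTG contains, had no match in the Slc26a5 window and occurred in 16.3% of promoters. CATTAA and ATTAAT, AT-rich strings that POU homeodomain motifs resemble, had no match on either strand, and 8.8% and 4.7% of promoters held them. These windows cover the promoter only, and the matches are descriptions of letters.

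Slc26a5 was lowest in HOM and highest in 2 of the 3 HET libraries. It had 0.46, 0.13 and 0.21 FPKM in HOM libraries 1 to 3, which correspond to 20, 6 and 10 fragments. HET libraries had 1.26, 6.23 and 5.05 FPKM, or 63, 333 and 241 fragments. WT libraries had 1.70, 1.92 and 0.80 FPKM, or 89, 86 and 37 fragments. The HOM libraries were below all other libraries, and the HET range enclosed the upper part of the WT range, with HET 1 below WT 1 and WT 2. The group means were 0.267 ± 0.172 FPKM in HOM, 4.18 ± 2.60 FPKM in HET and 1.47 ± 0.593 FPKM in WT (SD, n = 3 each).

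**Figure D1:**
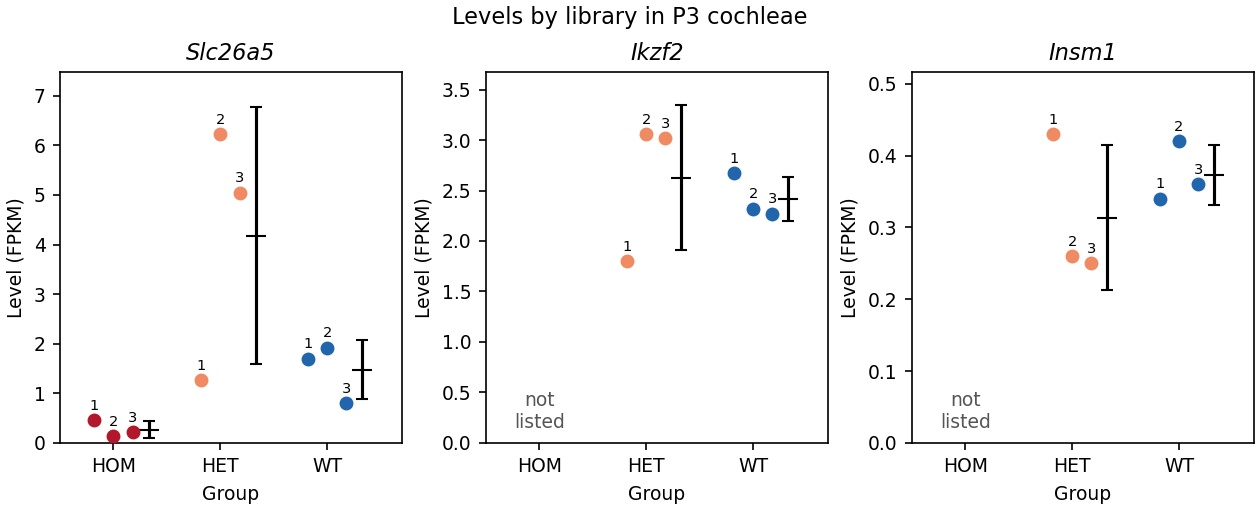
Level in FPKM (vertical axis, from 0) of Slc26a5, Ikzf2 and Insm1 in each library of the HOM, HET and WT groups; numbered points are libraries, and the black bar is the group mean with its SD (n = 3). Slc26a5 lay between 0.13 and 0.46 FPKM in HOM and between 1.26 and 6.23 FPKM in HET, against 0.80 to 1.92 FPKM in WT, and Ikzf2 and Insm1 overlapped between HET and WT.

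Prestin transcripts in HOM were at 6.38 ± 4.12% of the HET mean (SD over 3 HOM libraries). In the test across genes, limma on log2(FPKM + 1) over 1090 listed genes, Slc26a5 fell by 1.88 in HOM against HET (SE 0.43, 95% interval -2.91 to -0.85, adjusted p = 0.0173). Slc26a5 passed the filter of 1 FPKM in 3 libraries through the HET libraries alone, so it had to differ to be tested; without the filter the adjusted p was 0.0177. Ikzf2 and Insm1 could not be tested there. Of the 1090 genes, 44.5% were called at an adjusted p under 0.05, 36.3% called lower, and 46.2% had HOM libraries all below the HET libraries, so a call of this kind was common among listed genes. By the two-sided exact permutation test, p was 0.1, the smallest that 3 against 3 libraries allow. The pooled fragments were 36 in HOM and 637 in HET, a ratio of 6.14% with a counting interval of 4.26% to 8.60%, which leaves out the spread between libraries.

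Since a pseudocount of 1 FPKM understates the change of a gene this low, the difference with a pseudocount of 0.1 was -3.37. Leaving out a HET library takes Slc26a5 under the filter on low values. Without the filter, adjusted p was 0.0521 without HET 2, 0.0621 without HET 3 and 0.00087 without HET 1, with log2 differences of -1.55, -1.68 and -2.39. The call thus ended without HET 2 or HET 3, the libraries with the most Slc26a5, and leaving out HET 1 did not end it.

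Against WT, the HOM level of Slc26a5 was 18.1 ± 11.7% of the WT mean (SD over 3 HOM libraries). The HOM libraries lay below the WT libraries, as did those of 69.1% of the 1109 genes tested, by the choice of the list. In the same comparison 93.1% of genes were called, 65.4% lower and 27.7% higher. Slc26a5 was not tested there because WT 3, at 0.80 FPKM, kept it under the filter of 1 FPKM in 3 libraries. The log2 difference was -0.94. Without the filter, limma gave an SE of 0.20 and an adjusted p of 0.0101. The exact permutation p was again 0.1. HOM against HET and HOM against WT share the HOM libraries, so their values are not separate observations of HOM.

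In HET against WT, Slc26a5 averaged 284% ± 176 of the WT mean (SD over 3 HET libraries), and the groups overlapped. The log2 difference was 0.93 (SE 0.45, 95% interval -0.15 to 2.01), with an unadjusted p of 0.0796 and an adjusted p of 0.9998 by limma over 15391 genes. None of the 15391 genes was called, which is 0% of them. An unadjusted limma p under 0.05 was found for 266, fewer than that threshold passes on average when no gene differs. The exact permutation p was 0.3. The pooled fragments, 637 in HET and 212 in WT, gave a ratio of 285% with a counting interval of 243% to 334%. That interval covers counting error only, and the libraries of each group spread far beyond it. HET 2 had an FPKM interval of 5.58 to 6.94 from its counts and HET 1 one of 0.968 to 1.61.

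HET 1 and WT 3 had the lowest Slc26a5 of their groups and are the libraries that stood apart. Without both, HET libraries 2 and 3 had 6.23 and 5.05 FPKM, against 1.70 and 1.92 FPKM in WT libraries 1 and 2. The difference was then 1.24 (SE 0.12, 95% interval 0.93 to 1.54) and Slc26a5 ranked 6 of 14844 genes by p, with an adjusted p of 0.1695. This removal was chosen after the values were seen, and it left 0 genes called by limma and 2356 at an unadjusted p under 0.05. Leaving out one library at a time moved the difference between 0.61, without HET 2, and 1.45, without HET 1.

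**Figure D2:**
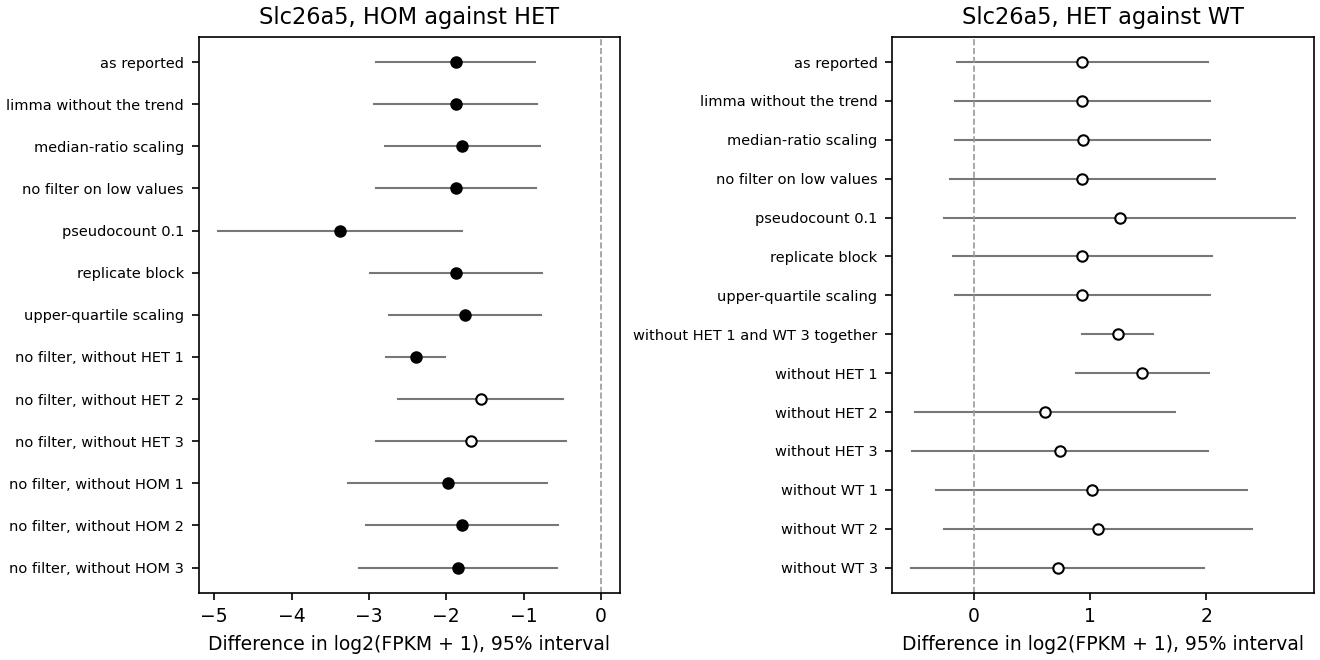
Difference in log2(FPKM + 1) of Slc26a5 (horizontal axis, bars are 95% intervals) for HOM against HET on the left and HET against WT on the right, by setting; filled points have a limma adjusted p under 0.05 and open points do not. On the left all differences lie below 0, from -3.37 to -1.55, and on the right all lie above 0, from 0.61 to 1.45, with no call.

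Ikzf2 (ENSMUSG00000025997) lies on the minus strand of chromosome 1 at 69531214 to 69687245 in GRCm38, with 10 exon blocks of 11613 bp in all. A gene on the other strand, Gm29114, shares 144 bp of exon with it, and no label says whether the counting used strand. Ikzf2 had 1.80, 3.06 and 3.02 FPKM in HET libraries 1 to 3, against 2.67, 2.32 and 2.27 FPKM in WT. HET 1 was the lowest of the 6 libraries and HET 2 the highest, so the WT values fell inside the HET range. The means were 2.63 ± 0.716 FPKM in HET and 2.42 ± 0.218 FPKM in WT (SD, n = 3 each).

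Ikzf2 in HET was 109% ± 29.6 of the WT mean (SD over 3 HET libraries), and the exact permutation p was 0.8. By limma its log2 difference was 0.07 (SE 0.17, 95% interval -0.34 to 0.47, adjusted p = 0.9998). The interval holds changes of either sign, so the direction was not settled at this replication. Counting was not the main limit: the pooled 1504 HET and 1319 WT fragments gave a ratio of 108% with an interval of 100.3% to 116.5%. Without HET 1 and WT 3 the difference was 0.21 (adjusted p = 0.368), and without HET 2 or HET 3 alone it was -0.03 and -0.02, so the sign rests on which HET libraries enter.

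Insm1 (ENSMUSG00000068154) is a gene of 1 exon, 3100 bp long, on the plus strand of chromosome 2 at 146221921 to 146225020 in GRCm38. It had 0.43, 0.26 and 0.25 FPKM in HET libraries 1 to 3, against 0.34, 0.42 and 0.36 FPKM in WT. These are 22, 14 and 12 fragments in HET and 18, 19 and 17 in WT. The highest value was in HET 1 and the lowest in HET 3, and the groups overlapped. Insm1 was the lowest of the 3 genes per length, in each of the 6 libraries.

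The mean level of Insm1 was 0.313 ± 0.101 FPKM in HET and 0.373 ± 0.0416 FPKM in WT (SD, n = 3 each), so HET had 83.9% ± 27.1 of the WT mean. The exact permutation p was 0.4. Insm1 did not reach the filter, and without it limma gave a difference of -0.07 (95% interval -0.26 to 0.13, adjusted p = 1). The pooled ratio of fragments, 48 to 54, was 84.3% with a counting interval of 55.9% to 127%. That interval leaves out the spread between libraries and holds changes of either sign, so the direction was not settled.

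The order of the 3 genes per length differed between groups. In WT every library had more Ikzf2 than Slc26a5. In HET libraries 2 and 3 Slc26a5 was above Ikzf2, and in HET 1 it was below. The largest gap between libraries of one group was that of Slc26a5 in HET, from 1.26 to 6.23 FPKM. Across the 6 HET and WT libraries Slc26a5 and Ikzf2 had a Pearson r of 0.819 on log2(FPKM + 1), Slc26a5 and Insm1 of -0.823, and Ikzf2 and Insm1 of -0.918. These describe 6 points among which HET 1 and WT 3 stand apart, and Insm1 rests on 12 to 22 fragments in each of them.

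Some genes of other cell types were extreme in the same libraries. HET 1 and WT 3 were both the lowest of their groups for Slc26a5 and Ikzf2, as for 28.2% of the 15391 genes tested, and both the highest for 36.1% of them. In the outer hair cell list they were both highest for 3 of 8 genes, Chrna10, Strc and Sri, and both lowest for 1, Bcl11b. They were both highest for 5 of 8 neuron and neuroblast genes and both lowest for 1, Syt1. They were both lowest for 3 of 5 mesenchyme and bone genes, and not for Col1a1 and Acp5, which were highest in HET 1 among the HET libraries. Tubb3, a neuronal tubulin, had 19.97, 10.55 and 8.44 FPKM in HET libraries 1 to 3, against 6.67, 14.08 and 21.66 FPKM in WT, and was highest where Slc26a5 was lowest in each group. The 8 neuron and neuroblast genes summed to 75.43 to 100.44 FPKM in HET and 61.64 to 105.49 FPKM in WT, with HET 1 and WT 3 highest. Neurog1, which defines neuroblasts, was listed at 0 in all 6, and Neurod1 was at 0.24 FPKM or less. Pou3f4, a mesenchyme transcription factor, had 53.07, 74.31 and 75.52 FPKM in HET, against 86.14, 75.62 and 61.97 FPKM in WT. The 5 mesenchyme and bone genes summed to 115.62 to 140.8 FPKM in HET and 123.8 to 160.2 FPKM in WT, with HET 1 and WT 3 lowest. The part of these other cells in the Slc26a5 and Ikzf2 values was not tested.

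**Figure D3:**
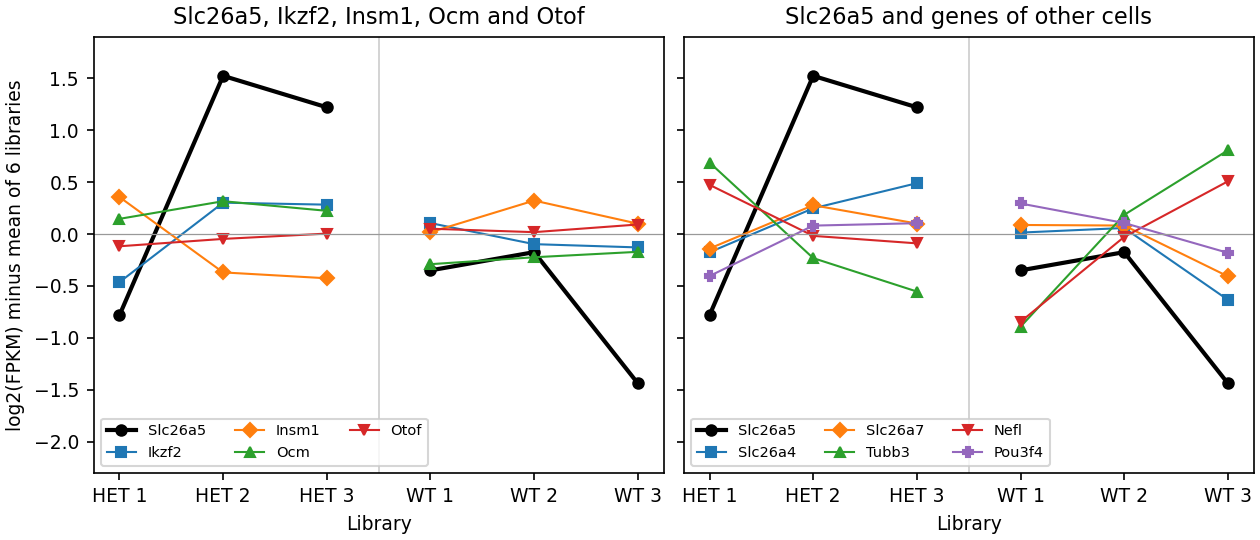
log2(FPKM) minus the mean of the 6 HET and WT libraries (vertical axis) for each library (horizontal axis); the left panel has Slc26a5, Ikzf2, Insm1, Ocm and Otof, the right panel Slc26a5 with Slc26a4, Slc26a7, Tubb3, Nefl and Pou3f4. HET 1 and WT 3 are the lowest libraries of their groups for Slc26a5, Slc26a4, Slc26a7 and Pou3f4 and the highest for Tubb3 and Nefl, and lines join the libraries of a group only to guide the eye.

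Genes of immune cells, some of which also express Ikzf2, ranged from below to above the Ikzf2 level. The 6 immune genes summed to 9.98 to 13.03 FPKM across the HET and WT libraries. Ptprc, the pan-leukocyte marker, was at 0.10 to 0.19 FPKM in HET and 0.14 to 0.16 FPKM in WT, and Foxp3, the regulatory T cell factor, at 0.06 to 0.29 FPKM in HET and 0.15 to 0.32 FPKM in WT. Cd3e, a T cell receptor chain, was at 0.14 to 0.32 FPKM in HET and 0.03 to 0.16 FPKM in WT. The macrophage genes Cd68 and Csf1r were higher, at 3.99 to 6.63 and 3.96 to 5.34 FPKM in HET and 4.72 to 5.78 and 4.67 to 5.40 FPKM in WT. The share of immune cells in the Ikzf2 signal was not tested.

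Markers of outer hair cells were present in HET and WT. All 8 genes of the outer hair cell list were above 0 in each of those libraries. None of the 7 tested was called between HET and WT, beside 0% of all genes tested. The median log2 difference of the 7 was 0.01, against 0.00 over all genes tested. Ocm, the calcium-binding protein oncomodulin of outer hair cells, had 18.88, 21.24 and 19.92 FPKM in HET, against 13.95, 14.61 and 15.15 FPKM in WT. All HET libraries were above all WT libraries, as for 2.82% of genes tested, and the difference of 0.43 had an adjusted p of 0.9998. In the other direction, 3.12% of genes had HET libraries all below the WT libraries. Among 7 inner hair cell genes this held for Atp2a3, a calcium pump of the endoplasmic reticulum, at 6.43, 8.14 and 8.44 FPKM in HET, against 9.82, 10.09 and 9.48 FPKM in WT, and not for the others. Atp2a3 had an adjusted p of 0.9998. Beside the same 0% of all genes, limma called 0 of the 6 inner hair cell genes tested and 0 of the 9 general hair cell genes. Otof, the calcium sensor of hair cell synapses, had 30.56, 32.10 and 33.26 FPKM in HET, all below the 34.36, 33.58 and 35.34 FPKM in WT, with a difference of -0.10 (adjusted p = 0.9998). Acp5, an osteoclast enzyme of the bone list, had 1.57, 1.08 and 0.44 FPKM in HET, also all below the 2.58, 6.22 and 1.95 FPKM in WT, with a difference of -1.10 (adjusted p = 0.9998).

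In HOM, the 5 listed outer hair cell genes fell together with Slc26a5: 5 of 5 were called lower than HET by limma, with a median of -1.79. Over all genes tested 36.3% were called lower, with a median of -0.16, and all of them were listed for a difference from WT, so the count is a description. Lbh, Bcl11b and Sri of the same list are not listed in HOM. Ocm had 4.29, 0.54 and 6.93 FPKM in HOM, 19.6 ± 16.0% of the HET mean and 26.9 ± 22.0% of the WT mean (SD over 3 HOM libraries). Chrna10, a subunit of the acetylcholine receptor through which efferent fibres inhibit these cells, was at 11.1 ± 8.54% of HET and 10.6 ± 8.12% of WT. Strc, which encodes the stereocilia protein stereocilin, was at 20.1 ± 16.1% of HET and 19.7 ± 15.8% of WT. Kcnn2, the calcium-activated potassium channel coupled to that receptor, was the least reduced, at 59.2 ± 4.49% of HET and 64.8 ± 4.92% of WT. The limma call of Ocm against HET ended without HET 2 or HET 3 (adjusted p = 0.0696 and 0.0719). That of Chrna9, the partner subunit of Chrna10, ended without any one HET library (adjusted p from 0.0641 to 0.0808). It also ended with a pseudocount of 0.1 (adjusted p = 0.0589).

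Inner hair cell and general hair cell genes also fell in HOM. The 3 listed inner hair cell genes were each called lower than HET, beside the same 36.3% of genes tested, with a median of -1.32. Atp2a3 had 0.29, 0.16 and 0.28 FPKM in HOM, or 3.17 ± 0.943% of HET. Fgf8, a growth factor secreted by inner hair cells, was at 28.3 ± 15.7% of HET. The smallest of these changes was that of Shtn1, a neuronal and hair cell cytoskeletal protein. Its call ended under median-ratio and upper-quartile scaling, with a replicate block and without HET 3, HOM 1 or HOM 2. Both scalings used the listed genes only, which were chosen for a difference from WT. All 7 listed general hair cell genes, Pou4f3 among them, were called lower, again beside 36.3%, with a median of -1.71. All HOM libraries lay below all HET libraries in 6 of the 7, as they did in 46.2% of genes tested. In Atoh1, a transcription factor that starts hair cell formation, the groups overlapped, with HOM 3 at 3.47 FPKM and HET 2 at 3.33 FPKM (exact permutation p = 0.2). Its call (adjusted p = 0.0448) ended under both scalings, with a pseudocount of 0.1 and without any one of the HET libraries, HOM 1 or HOM 2. That of Myo6 ended with a replicate block, under upper-quartile scaling and without HET 2, HET 3, HOM 2 or HOM 3. The calls of Pou4f3 and Myo7a ended without HET 2 or HET 3, and that of Fgf8 without HET 3. Otof had 0.87, 0.29 and 1.11 FPKM in HOM, or 2.37 ± 1.32% of HET. The 3 listed supporting cell genes, Gjb2, Gjb6 and Epyc, were called higher than HET, with a median of 0.34, where 8.17% of genes tested were called higher. Those 3 calls ended without HET 2 or HET 3 and with a replicate block. That of Epyc also ended without HOM 1 or HOM 3. Cd68, a macrophage marker and the 1 immune gene listed in HOM, had 7.40, 6.31 and 6.26 FPKM in HOM, against 6.63, 4.89 and 3.99 FPKM in HET, with an adjusted p of 0.130. Whether these cells have a part in the Slc26a5 values was not tested.

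**Figure D4:**
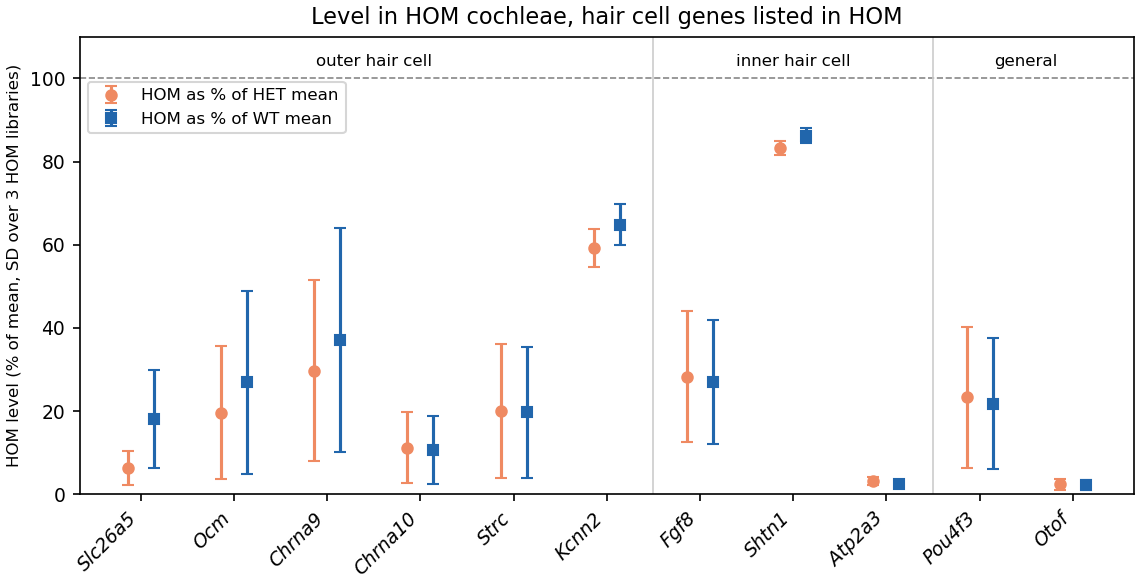
Mean level in HOM as a percent of the HET mean (circles) and of the WT mean (squares), vertical axis, for Slc26a5 and 10 other hair cell genes listed in HOM; bars are the SD over the 3 HOM libraries and the dashed line is 100%. Slc26a5 was at 6.38% of HET and 18.1% of WT. The other outer hair cell genes ranged from 11.1% to 59.2% of HET and from 10.6% to 64.8% of WT. Slc26a5 was thus below their range against HET and inside it against WT.

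Within HOM, Slc26a5 did not order the libraries as most of the other listed hair cell genes did. HOM 1 had the most Slc26a5, whereas HOM 3 was highest for 11 of the other 15 listed hair cell genes and HOM 1 for 3, namely Chrna9, Atp2a3 and Myo6. Kcnn2 was equal in HOM 1 and HOM 3. HOM 2 was lowest for Slc26a5 and for 15 of 15. The counting intervals of Slc26a5 were 0.281 to 0.710 FPKM in HOM 1 and 0.101 to 0.386 FPKM in HOM 3. They overlap, so the counts do not settle the Slc26a5 order of these libraries. As a percent of the Ocm level, Slc26a5 was 10.7, 24.1 and 3.03 in HOM libraries 1 to 3, against 6.67, 29.3 and 25.4 in HET and 12.2, 13.1 and 5.28 in WT. As a percent of the Otof level it was 52.9, 44.8 and 18.9 in HOM, against 4.12, 19.4 and 15.2 in HET and 4.95, 5.72 and 2.26 in WT. As a percent of the Myo7a level it was 11.2, 6.99 and 3.80 in HOM, against 15.4, 63.1 and 47.2 in HET and 21.2, 21.9 and 8.35 in WT. The groups thus ranked differently by the gene used. The ratio to Myo7a was lower in all HOM libraries than in any HET library and overlapped WT. The ratio to Ocm overlapped between all groups, and the ratio to Otof overlapped between HOM and HET only at their edges, with HOM 3 below HET 2. With 6 to 20 Slc26a5 fragments in a HOM library, counting error is a large part of these ratios.

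Relatives of Slc26a5 were not called between HET and WT, where 0 of all 15391 genes tested were called. Of the 10 other SLC26 anion transporter genes, none is listed in HOM, 4 passed the filter in HET against WT and 0 were called, with log2 differences of 0.08 to 0.31. Slc26a4, which encodes pendrin, the anion exchanger of the endolymph-lining epithelium, had 4.49, 6.02 and 7.12 FPKM in HET, against 5.12, 5.28 and 3.27 FPKM in WT. Slc26a7 had 8.86, 11.83 and 10.47 FPKM in HET, against 10.37, 10.33 and 7.36 FPKM in WT. Slc26a2, a sulfate transporter needed by cartilage, had 2.10, 3.77 and 3.22 FPKM in HET, against 3.19, 2.96 and 1.98 FPKM in WT. Each of these was lowest of its group, as Slc26a5 was, in HET 1 and WT 3, and the groups overlapped. Of the 10 relatives, 4 were lowest in both libraries, beside 28.2% of all genes tested. Slc26a10 alone was highest in both, beside 36.1%. Slc26a11, which also passed the filter, was highest in WT 3 among the WT libraries.

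Other Ikaros factors and partners of the regulators were not called between HET and WT either, beside 0% of all genes tested. Ikzf4 had 2.65 to 3.30 FPKM in HET and 2.84 to 2.90 FPKM in WT, and Ikzf5 1.11 to 1.46 FPKM in HET and 1.09 to 1.19 FPKM in WT. Ikzf1 and Ikzf3, the lymphoid members, stayed at or below 0.41 FPKM and did not pass the filter. Ikzf1 had 0.31, 0.41 and 0.31 FPKM in HET, all above the 0.24, 0.20 and 0.19 FPKM in WT. Among genes that passed the filter, 2.82% had HET libraries all above the WT libraries. Insm2, the paralogue of Insm1, was at 0.09 to 0.12 FPKM in HET and 0.08 to 0.18 FPKM in WT. The 7 corepressor genes, which include Kdm1a and Rcor1 of the complex that INSM1 recruits, had differences of -0.08 to 0.10 with 0 called. The thyroid hormone genes were also tested, since thyroid hormone drives prestin expression in rodents. Thrb, the receptor beta gene, had 26.42, 36.17 and 34.07 FPKM in HET, against 34.40, 36.77 and 31.12 FPKM in WT, and 0 of the 4 tested thyroid genes were called. A missed call does not show equal levels, and none of these genes is listed in HOM.

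The genes whose pattern was most like each of the 3 over the 6 HET and WT libraries were found by Pearson r of log2(FPKM + 1) among the genes tested. For Slc26a5 they were Heatr1 (r = 0.998), Acp1 (0.995), Tro, Sp4 and Usp40, and 154 genes had an r above 0.95. For Ikzf2 they were Zfp397 (r = 0.997), Mir6907, Ncapd3, Dpy19l1 and Lnpk, with 324 genes above 0.95. For Insm1 they were Rpl27 (r = 0.988), Gm10704, Wfdc12, Gm27749 and Acot7, with 63 above 0.95. Over all 9 libraries, among the 1109 listed genes, those most like Slc26a5 were Fam49a (r = 0.975), Homer2 (0.969), Pih1d2, Fbxl12os and Kif27. The points share the split of HET 1 and WT 3 from the rest and, for the 9 libraries, the choice of listed genes, so many genes reach such values.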

How the data were processed

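RNA of postnatal day 3 cochleae was sequenced in 9 libraries, 3 for each Pou4f3 genotype, grouped by sample title. The authors deposited FPKM per gene, with no counts among the files used here. The submitters' processing notes name DESeq2 and the build mm8, and no source used here names the aligner or counter. GENCODE M21 on GRCm38 held 51633 of the 51912 gene identifiers, and promoter sequence, matched for 1 of the 3 genes, came from RefSeq on GRCm38.p6.

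The plan named a count test if the files held counts. Since they hold FPKM, limma 3.58.1 (R 4.3.3) was fitted to log2(FPKM + 1), with empirical Bayes and a mean-variance trend, and a gene entered if 3 or more of the 6 libraries had a value of 1 FPKM or above. P-values were Benjamini-Hochberg adjusted over all genes tested. The fit was also run on simulated HET and WT values with noise independent between genes and libraries. That simulation covers neither the split of HET 1 and WT 3 from the rest nor the choice of genes listed in HOM. Single genes also had two-sided exact permutation tests in SciPy 1.17.1. Differences are the first group named minus the second. Fragments were recovered from FPKM, exon length and the depth at which low values in genes of up to 600 bp of exon became whole within 0.1, which held for 99.4% to 100% of them. Their intervals are exact Poisson (ratios binomial) at 95% and cover counting error only.

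The 3 genes, the 12 lists of 76 other genes and the rule naming the 5 genes of most similar pattern were chosen with earlier results of these data known. Alternatives changed the pseudocount, filter, scaling, trend and replicate block and left out each library.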

Additional observations from a re-analysis of the deposited data

How the results depend on the processing

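The HOM values rest on genes listed for a difference from WT, and the call of Slc26a5 against HET rests on HET 2 and HET 3. No clear pairing by replicate number was seen, and none is excluded. Deviations of same-numbered libraries correlated at -0.519, 0.286 and -0.471 in HET and WT. They correlated at 0.247, 0.094 and 0.275 in HOM and WT, and at -0.324, 0.089 and -0.158 in HOM and HET. Libraries of different numbers were not compared in this way. With a replicate block, 304 genes were called in HOM against HET, against 485 without it, 909 in HOM against WT and 0 in HET against WT. Slc26a5 kept its call with the block (adjusted p = 0.0403). Median-ratio and upper-quartile scaling called 655 (352 higher, 303 lower) and 638 (353 higher, 285 lower) genes in HOM against WT, against 1032 (307 higher, 725 lower) unscaled. They called 246 higher and 272 lower, and 306 higher and 223 lower, in HOM against HET, against 89 higher and 396 lower unscaled. In both HOM comparisons the scale factors came from the listed genes only, which were chosen for a difference from WT. Such scaling takes out part of any shift that the listed genes share, so it is no check of the unscaled counts. The median over the listed genes tested in HOM against WT moved from -0.22 to -0.05 and -0.03 under these scalings. That in HOM against HET moved from -0.16 to -0.03 and 0.04. Slc26a5 in HOM against HET was -1.79 and -1.76 under them. Leaving out each library gave 0 to 1 called genes in HET against WT, 588 to 864 in HOM against WT and 116 to 431 in HOM against HET. The 1 gene was Rpl29 without WT 1 and Xist without WT 2, named after their values were seen. HET minus WT was 5.33 (SE 0.17) for Rpl29 and 6.04 (SE 0.31) for Xist. Xist depends on the sex of the animals, so by this gene the HET libraries were not matched in sex to WT 1 and WT 3. The part of sex in the HET against WT values was not tested. Leaving out each library moved the log2 difference of Ikzf2 between -0.026 and 0.242, with a reversal to -0.019 without HET 3 and to -0.026 without HET 2. That of Slc26a5 in HOM against HET ranged from -2.393 to -1.554. A pseudocount of 0.1 moved Insm1 in HET against WT to -0.219, against -0.07, and Slc26a5 in HOM against WT to -2.119, against -0.94. Shtn1 in HOM against WT turned to 0.023 under upper-quartile scaling. Beyond the way the scale factors were made, the cause of these shifts was not tested. Over 39 results of list genes, 399 of 463 alternatives kept the direction and side of the threshold, 61 lost the call, 2 gained it and 1 reversed. At 6 to 22 fragments a library, Slc26a5 in HOM and Insm1 in HET and WT are limited by counting.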
